A study of Mus musculus with 6 samples.

Results

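The gene described here is CYP19A1, the human aromatase transgene of the Aromhum mouse. It is 1 of 16494 gene rows of the deposited table and was chosen by its measured UMIs in these samples, which were present in Arom and absent in WT mice, so its levels are given below as a description with no test. Mouse Cyp19a1 was not analysed here. Cells had been dissociated from the lower abdominal muscle, or LAM, and captured singly. The mice were 3 wild-type (WT) and 3 Aromhum animals, all males of the FVB/N strain aged 9 to 10 weeks. The samples WT1 to WT3 came from mice without the transgene. Arom1 to Arom3 came from mice with scrotal hernia that carry a genomic fragment holding the human gene with its own regulatory region and polyadenylation site. The fragment is read from its native human promoters, so no single cell type was targeted. No other allele or treatment was given for either group. A WT mouse and an Aromhum littermate were processed on each of 3 dates, but the labels do not say that a sample number marks a date. Large multinucleated fibers were removed by filtering before capture. The study proposes that its cluster of mature muscle markers may stand for a few myonuclei that stayed in the suspension.

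Aromatase is a cytochrome P450 of the endoplasmic reticulum that turns androgens into estrogens, taking its electrons from the reductase Por. In humans the gene is read from several alternative promoters, each used in a different set of tissues such as ovary, placenta, brain, bone, skin and adipose stroma. Estrogen made in a tissue can act there through the receptors encoded by Esr1 and Esr2, and is inactivated by conjugating and oxidizing enzymes.

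The unit throughout is the UMI, a tag that counts 1 captured RNA molecule. A level is given in CPM, UMI counts-per-million of the UMIs of all genes in the same barcodes of the same mouse, as the mean ± SD of the Arom mice. The table held 63647 barcodes, each of which stands for a captured cell, 34754 of them from Arom and 28893 from WT mice. Total UMIs ranged from 92652109 to 111826460 in the Arom and from 64958237 to 72876541 in the WT samples. Median UMIs per barcode ranged from 6673 to 8727 and from 4728.5 to 5897, respectively. Of the barcodes, 27.6% to 30.9% had over 5% mitochondrial UMIs in the Arom samples. This share was higher in every WT sample, at 37.95% in WT1, 68.2% in WT2 and 40.1% in WT3. The part of this difference in the genotype comparisons below was not tested on its own. Barcodes were clustered without CYP19A1 and named from marker genes, which gave 11 named types, and 10 of these had at least 10 barcodes in every Arom mouse. All markers of a type were highest in that type in 10 of the 11, and 10 of 11 were for macrophage/monocyte-like cells. A total of 471 barcode sequences occurred in more than 1 library. Among them were 19 WT barcodes that shared a sequence with a CYP19A1-positive Arom barcode. These held 0 CYP19A1 UMIs, as did all 28893 WT barcodes, so this is no separate check on exchange between libraries.

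CYP19A1 was found in every Arom sample and in no WT sample. The Arom1, Arom2 and Arom3 samples held 770, 797 and 787 CYP19A1 UMIs, while WT1, WT2 and WT3 each held 0. As levels these were 7.02 CPM in Arom1, 7.13 CPM in Arom2 and 8.49 CPM in Arom3, with a mean of 7.55 ± 0.821 CPM (SD, n = 3). A total of 3 UMIs over the 3 WT samples would be 0.0147 CPM, so the Arom mean was at least 513-fold higher. The transcript was sparse. Of the Arom barcodes, 5.15% in Arom1, 4.70% in Arom2 and 6.45% in Arom3 held at least 1 CYP19A1 UMI. Of the 1845 positive barcodes, 1481 held a single UMI, 277 held 2, 60 held 3, and 27 held 4 or more, up to 13. The 9 barcodes with 5 or more UMIs were all fibroblast-like, and 5 of them came from Arom3.

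The CYP19A1 level was highest in glial-like cells. These cells, which carry Sox10 and other Schwann cell markers, ensheathe the nerve fibers of the muscle. They held 43, 48 and 76 CYP19A1 UMIs in Arom1, Arom2 and Arom3. Their level was 39.2 CPM (95% Poisson interval, 28.4 to 52.8) in Arom1, 46.5 CPM (34.3 to 61.7) in Arom2 and 47.3 CPM (37.2 to 59.1) in Arom3, a mean of 44.3 ± 4.45 CPM (SD, n = 3). Smooth muscle-like cells were next with 24.02, 18.1 and 24.1 CPM, a mean of 22.1 ± 3.43 CPM. The ranges of these types over the 3 mice did not overlap each other or those of any type below them. Mesothelial-like cells, the Msln- and Upk3b-positive lining of the abdominal cavity, held 9.83, 9.70 and 12.5 CPM, a mean of 10.7 ± 1.57 CPM. Fibroblast-like cells, which carry Pdgfra and collagen genes, held 8.13, 7.46 and 9.97 CPM, a mean of 8.52 ± 1.30 CPM. Within the study's limits on genes, UMIs and mitochondrial share, the glial-like level was 61.5 ± 34.8 CPM from 28 UMIs and remained the highest, but the smooth muscle-like level was 7.48 ± 7.55 CPM from 4 UMIs, below the mesothelial-like level of 13.5 ± 6.34 CPM. With each barcode typed on its own by its marker UMIs the smooth muscle-like level was 12.6 CPM. The ranges of the mesothelial-like and fibroblast-like cells overlapped, although the mesothelial-like value was the higher in each mouse.

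**Figure D1:**
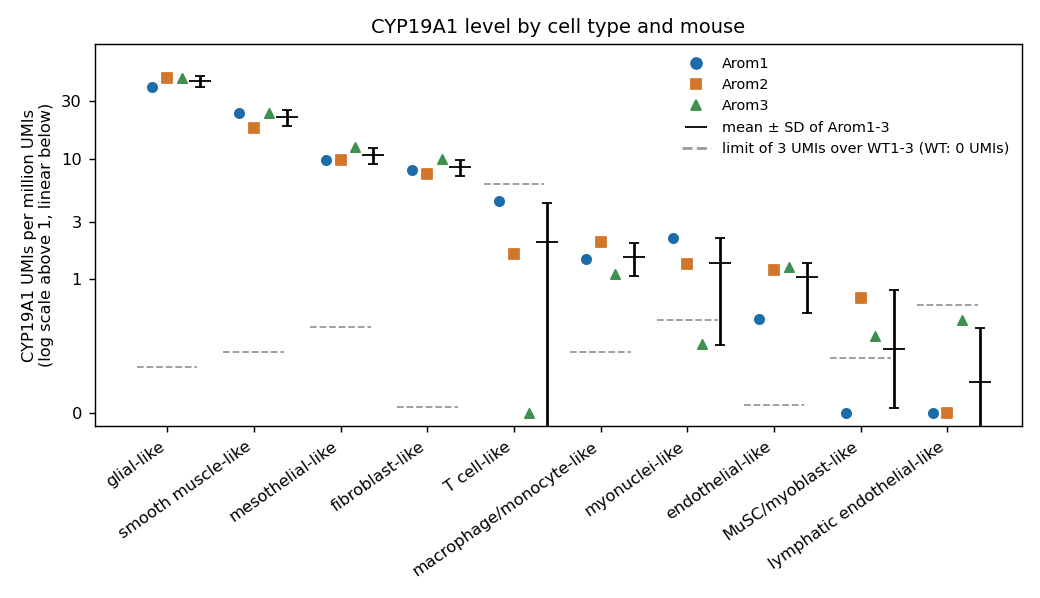
CYP19A1 level in CPM (vertical axis, log scale above 1 and linear below) in the 10 cell types with at least 10 barcodes in every Arom mouse, with a point per Arom mouse, black mean ± SD, and a dashed line for the level that 3 UMIs over all WT barcodes of the type would give. Glial-like cells average 44.3 CPM, smooth muscle-like 22.1 CPM, mesothelial-like 10.7 CPM and fibroblast-like 8.52 CPM, and error bars that pass below the axis are cut there.

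The glial-like level was not highest in the deepest barcodes. It was 70.5 ± 11.4 CPM in the 330 barcodes under 2000 UMIs and 36.8 ± 9.49 CPM in the 69 with 10000 to 20000 UMIs, while fibroblast-like cells of the latter depth held 8.32 ± 1.22 CPM.

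With the types taken from clusters, the other named types with all 3 mice lay lower. Endothelial-like cells, the second most numerous type with 6237 Arom barcodes, held 0.700, 1.19 and 1.26 CPM, a mean of 1.05 ± 0.306 CPM. This mean was 1.70 CPM at a Leiden resolution of 1.2 and 1.68 CPM with the groups taken from the deposited column order. Macrophage/monocyte-like cells averaged 1.54 ± 0.475 CPM from 33 UMIs. Myonuclei-like cells averaged 1.36 ± 0.846 CPM from 7 UMIs and T cell-like cells 2.03 ± 2.27 CPM from 3 UMIs. MuSC/myoblast-like cells, the muscle stem cells and their progeny, averaged 0.479 ± 0.438 CPM from 3 UMIs. The level of the latter turned on how barcodes were typed, since it was 2.07 ± 0.396 CPM at a resolution of 0.4 and 7.33 ± 7.72 CPM from 58 UMIs with each barcode typed on its own by its marker UMIs, beside 8.24 ± 0.783 CPM in fibroblast-like and 4.14 ± 1.82 CPM in T cell-like cells. Lymphatic endothelial-like cells held 1 UMI in 443 barcodes. Neutrophil-like cells, with values in 2 mice, held 0 CPM in Arom1 and 11.3 CPM (95% Poisson interval, 0.285 to 62.8) in Arom2 from 1 UMI in 61 barcodes, so their place in the order was not resolved. With the types taken from clusters, the fibroblast-like range lay above those of all lower types with 3 mice, whereas with each barcode typed on its own the fibroblast-like and MuSC/myoblast-like means differed by less than the SD of the latter. Over all alternatives run, the macrophage/monocyte-like mean ranged from 0.308 to 2.24 CPM, the lymphatic endothelial-like mean from 0 to 2.07 CPM and the myonuclei-like mean from 0.488 to 1.78 CPM. Among the named types with 3 mice below it each range overlapped that of the next, so neighbours in their order were not resolved at this depth. Intervals cover counting error only.

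The share of positive barcodes gave a different order, and depth differed between the types. Glial-like barcodes were positive in 13.5%, 14.1% and 18.5% of cases in Arom1, Arom2 and Arom3, at a mean median depth of 2561 UMIs. Mesothelial-like barcodes were positive in 10.8%, 11.5% and 15.6% of cases, at 11323 UMIs. Fibroblast-like barcodes were positive in 8.52%, 6.07% and 9.85% of cases, at 11115 UMIs. Smooth muscle-like barcodes were positive in 6.88%, 5.38% and 7.92% of cases, at 3010 UMIs. When each barcode was thinned to 3000 UMIs and shallower ones were left out, the mean shares became 12.2 ± 2.51% in glial-like, 6.22 ± 0.911% in smooth muscle-like, 3.01 ± 0.148% in mesothelial-like and 2.37 ± 0.524% in fibroblast-like barcodes. This is the order of the levels. The barcodes left were 376 of 877 glial-like, 736 of 1463 smooth muscle-like, 2200 of 2334 mesothelial-like and 14391 of 15259 fibroblast-like ones. In the pericyte cluster of the smooth muscle-like cells, with 1.05% of barcodes positive before thinning, 45 of 437 barcodes were left. The ranges of the glial-like and smooth muscle-like shares then overlapped neither each other nor those of the other types with 3 mice. Endothelial-like barcodes, for comparison, were positive in 0.448 ± 0.180% of cases at 3627 UMIs and in 0.233 ± 0.0539% after thinning. The count per barcode followed the order of the shares before thinning. Per 1000 barcodes there were 190 ± 56.7 CYP19A1 UMIs in glial-like, 149 ± 35.8 in mesothelial-like, 109 ± 31.5 in fibroblast-like and 83.1 ± 20.6 in smooth muscle-like cells, against 5.08 ± 2.33 in endothelial-like cells.

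**Figure D2:**
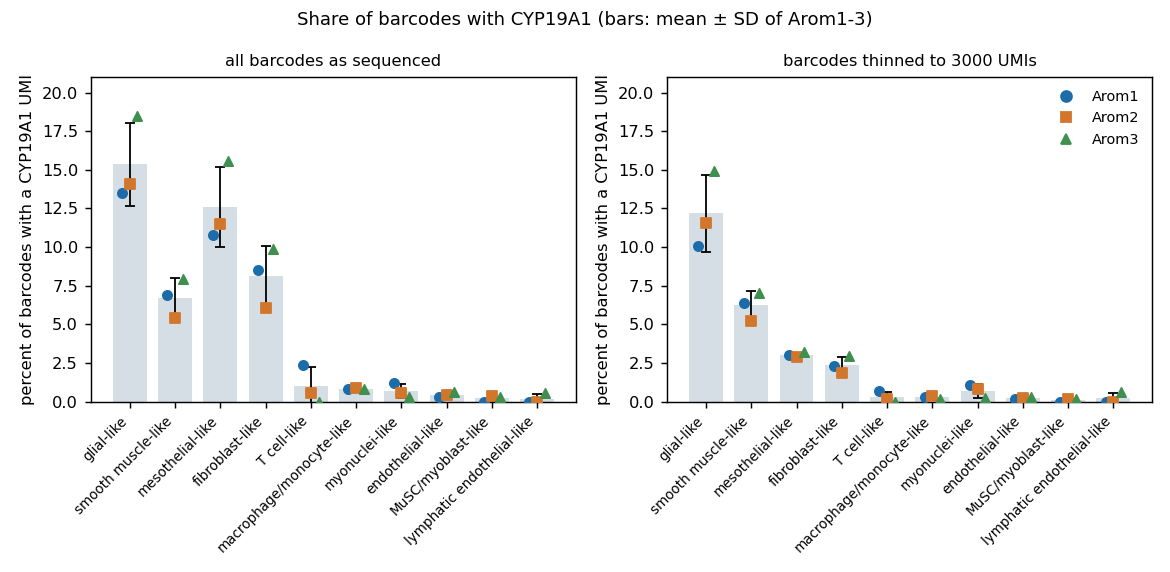
Percent of barcodes with at least 1 CYP19A1 UMI by cell type, with bars for the mean ± SD of Arom1 to Arom3 and a point per mouse, for all barcodes as sequenced (left) and for barcodes thinned to 3000 UMIs (right). Mesothelial-like cells fall from 12.6% to 3.01% and fibroblast-like cells from 8.15% to 2.37% on thinning, while smooth muscle-like cells change from 6.73% to 6.22%. The right panel leaves out barcodes under 3000 UMIs and holds 736 of 1463 smooth muscle-like and 14391 of 15259 fibroblast-like ones.

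The UMIs of fibroblast markers and of CYP19A1 did not run in 1 ratio across the types. The 8 fibroblast markers together made up 48868 CPM of fibroblast-like cells, 12340 CPM of glial-like, 6160 CPM of smooth muscle-like, 20211 CPM of mesothelial-like, 5308 CPM of macrophage/monocyte-like and 493 CPM of endothelial-like cells. For every 10000 of these marker UMIs, fibroblast-like cells held 1.75 ± 0.323 CYP19A1 UMIs and macrophage/monocyte-like cells 3.14 ± 0.894. Glial-like cells held 36.0 ± 3.60, smooth muscle-like cells 38.7 ± 15.8, endothelial-like cells 21.2 ± 5.11 and mesothelial-like cells 5.27 ± 0.667. Positive and negative barcodes of a type also differed in these markers to an extent that depended on the type. In glial-like cells the markers were at 13426 ± 3516 CPM in the 135 positive and 11990 ± 2025 CPM in the 742 negative barcodes. The positive barcodes were the higher only in Arom1, with 17475 against 9963 CPM, while they were at 11664 against 14013 CPM in Arom2 and 11139 against 11994 CPM in Arom3. In each mouse of the smooth muscle-like cells they were higher in the positive barcodes, at 10959 ± 3876 CPM in the 98 positive and 5545 ± 1700 CPM in the 1365 negative barcodes. In macrophage/monocyte-like cells they were at 25382 ± 1582 CPM in the 27 positive and 4897 ± 2361 CPM in the 3271 negative barcodes. Of the 15, 10 and 2 positive macrophage/monocyte-like barcodes of Arom1, Arom2 and Arom3, 60.0%, 80.0% and 100% were among those marked as possible doublets, against 10.5%, 11.96% and 22.8% of the negative ones. Without all marked barcodes the macrophage/monocyte-like level was 0.363 CPM, whereas the glial-like level was 52.6 CPM and the smooth muscle-like level 23.4 CPM.

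Although their level was the fourth in order, fibroblast-like cells held most of the transgene RNA. They held 535 of the 770 CYP19A1 UMIs of Arom1, 532 of the 797 of Arom2 and 493 of the 787 of Arom3, which is 66.3 ± 3.44% (SD, n = 3). They made up 43.2 ± 5.69% of the Arom barcodes and 59.0% of all their UMIs. Mesothelial-like cells gave 14.5 ± 3.18% of the CYP19A1 UMIs from 6.75 ± 1.11% of the barcodes. Glial-like cells gave 7.09 ± 2.24% of the CYP19A1 UMIs from 2.61 ± 0.622% of the barcodes and 1.22% of all UMIs. Smooth muscle-like cells gave 5.15 ± 1.201%, and endothelial-like cells 1.36 ± 0.697% from 18.7 ± 5.73% of the barcodes.

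**Figure D3:**
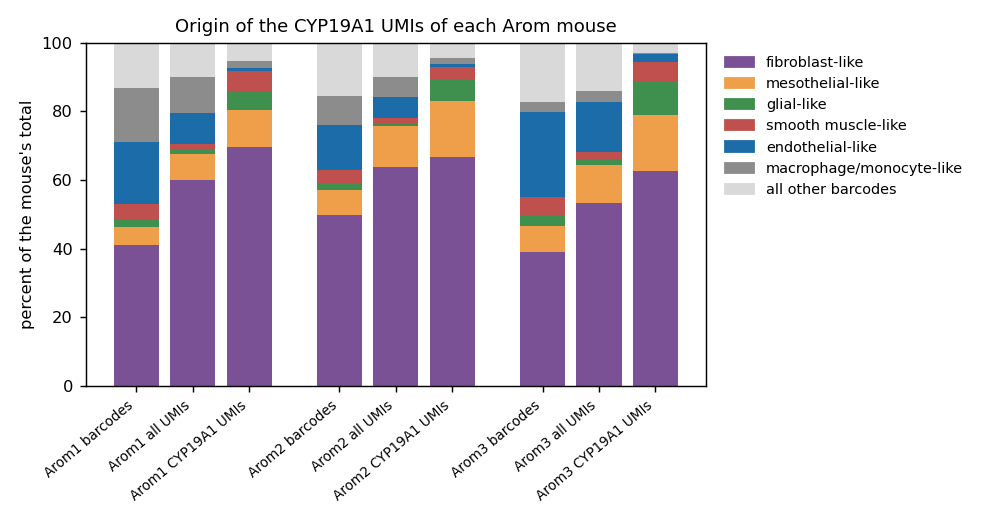
Stacked bars of the percent of barcodes, of all UMIs and of CYP19A1 UMIs (vertical axis) that lie in each cell type, for Arom1, Arom2 and Arom3. Fibroblast-like cells take 66.3 ± 3.44% of the CYP19A1 UMIs, and the glial-like band widens from 1.22% of all UMIs to 7.09% of the CYP19A1 UMIs.

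Within the glial-like cells, CYP19A1 was present in each cluster. The non-myelinating cluster, with Col20a1, Bche, Ptn and Nrn1 among its leading genes, held 44.4, 54.3 and 58.8 CPM in Arom1, Arom2 and Arom3. The myelinating cluster, with the myelin genes Mal, Ncmap and Mbp among its leading genes, held 37.5, 34.3 and 47.5 CPM. A further cluster of 100 barcodes, led by Grp, Tenm2, Gatm, Crabp2 and the tight junction gene Cldn1, carried neither name and held 32.6, 39.7 and 35.9 CPM. The range of the myelinating cluster overlapped both others, and every mouse of the non-myelinating cluster lay above every mouse of the Grp Tenm2 cluster. With 8 to 31 CYP19A1 UMIs per mouse and cluster, the Poisson intervals of those 2 overlapped nonetheless, reaching down to 27.5 CPM in the former and up to 75.4 CPM in the latter.

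The smooth muscle-like cells were less uniform. The contractile cluster, led by Myh11, Acta2, Pln, Myl9 and Nrip2, held 34.3, 19.7 and 24.6 CPM. A cluster led by H2-M9, Actg2, Colec11, Ccl11 and Id4, which was given no finer name, held 19.3, 21.2 and 34.7 CPM. The pericyte cluster, led by Kcnj8, Abcc9, Higd1b, Cox4i2 and Rgs5, held 4, 0 and 1 UMIs in 117, 146 and 174 barcodes, or 19.7, 0 and 2.93 CPM. Its Poisson intervals reached up to 50.5, 18.0 and 16.3 CPM. Only the Arom2 and Arom3 values lay below the lowest mouse of both other clusters.

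The endothelial-like clusters also differed, although each held few CYP19A1 UMIs. The capillary cluster led by Timp4, Gpihbp1, C1qtnf9, Car4 and Cd300lg, with 1011 Arom barcodes, held 3, 3 and 6 UMIs in Arom1, Arom2 and Arom3, or 4.01 (95% Poisson interval, 0.827 to 11.7), 5.52 (1.14 to 16.1) and 3.80 CPM (1.39 to 8.27). The venular cluster led by Ackr1, Selp, Csf3, Plvap and Sele held 3, 0 and 1 UMIs in 2045 barcodes, or 0.516, 0 and 0.170 CPM. A second capillary cluster, led by Cldn5, Sox17, Slc1a1 and Sema7a, held 0.423, 1.62 and 2.25 CPM from 14 UMIs. The other capillary cluster, led by Rbp7, Fabp4 and Egfl7, held 1 UMI in 622 barcodes, and the arterial cluster, led by Cytl1, Gkn3, Klk10 and Gja5, 1 UMI in 431. Each mouse of the Timp4 cluster lay above each mouse of the venular, arterial and Cldn5 clusters and below each of the fibroblast-like class. The mean of all endothelial-like cells combined clusters at 0.229 ± 0.263 to 4.44 ± 0.937 CPM.

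Among the 18 clusters of fibroblast-like cells, a tendon-like population stood at the top. The tenocyte-like cluster led by Chodl, Cilp2, Ptx4, the tendon transcription factor Scx and Thbs4, of which Chodl is also a marker of muscle stem cells, held 53, 18 and 60 UMIs in 98, 68 and 133 barcodes. Its 60 UMIs in Arom3 include 11 in 1 barcode and 5 in another. Its level was 41.2 CPM (95% Poisson interval, 30.9 to 53.9) in Arom1, 28.0 CPM (16.6 to 44.2) in Arom2 and 51.1 CPM (39.0 to 65.8) in Arom3, a mean of 40.1 ± 11.6 CPM, within the range of the glial-like clusters. The lowest of these mice exceeded every mouse of the 12 fibroblast-like clusters with means from 1.37 to 15.2 CPM and values in all 3 mice. A second tenocyte-like cluster, led by Wif1, Comp, Fmod, Tnmd and Igfbp3, held 11.5, 7.62 and 16.6 CPM. A small cluster of 60 barcodes led by 6030408B16Rik, Apod, Saa1, Dlk1 and Cxcl14 held 51.6, 15.4 and 22.7 CPM, but from only 3, 1 and 10 UMIs.

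Most other fibroblast-like clusters lay near the level of the whole tissue. Tppp3-positive fibroblasts formed a cluster led by Cxcl5, Ahsg, Tslp, Prss12 and Plau at 9.86, 8.12 and 8.50 CPM, and another led by Lars2, G0s2, Hpgd, Txnip and Rgma at 17.1, 8.47 and 19.9 CPM. Of the 67 UMIs of the Lars2 cluster in Arom3, 13 lay in 1 barcode and 8 in another. The cluster led by Inmt, Gdf10, Alkal2, Il6 and Cxcl2 held 10.6, 10.4 and 9.38 CPM. Dmkn-hi fibroblasts led by Stmn4, Krtdap, Efhd1, Itgb7 and Uchl1 held 7.76, 11.9 and 9.40 CPM, whereas those led by Dact2, Akr1c18 and Krtdap held 6.19, 5.22 and 1.51 CPM. A further Dmkn-hi cluster, led by Krt23, Dmkn, Serpinb2, Sbsn and Srgn, held 2.95 and 3.93 CPM in Arom1 and Arom2 and had 9 barcodes in Arom3. Tgfbi Angptl1 fibroblasts, led by Mup5, Clu and Lsamp, held 8.10, 4.42 and 6.61 CPM. A cluster led by the endothelial genes Fabp4, Cldn5, Cd36, Gpihbp1 and Selp, with 249 barcodes, held 5.39, 9.59 and 9.86 CPM and was left without a name. A cluster led by Serpinb7, 2200002D01Rik, Stmn2, Lypd2 and Vit had at least 10 barcodes only in Arom3, where it held 9.20 CPM from 2 UMIs. A cluster of 42 barcodes led by the muscle fiber genes Mylpf, Acta1 and Tnnc2 held 5.14 and 6.66 CPM in Arom1 and Arom2 and was left without a name as well. At the bottom was the cluster led by Tspan8, Epyc, Lgr5, Fgf9 and Eln. Its 775 barcodes held 10 CYP19A1 UMIs, and its levels of 0.901, 1.86 and 1.35 CPM were near those of endothelial-like cells.

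**Figure D4:**
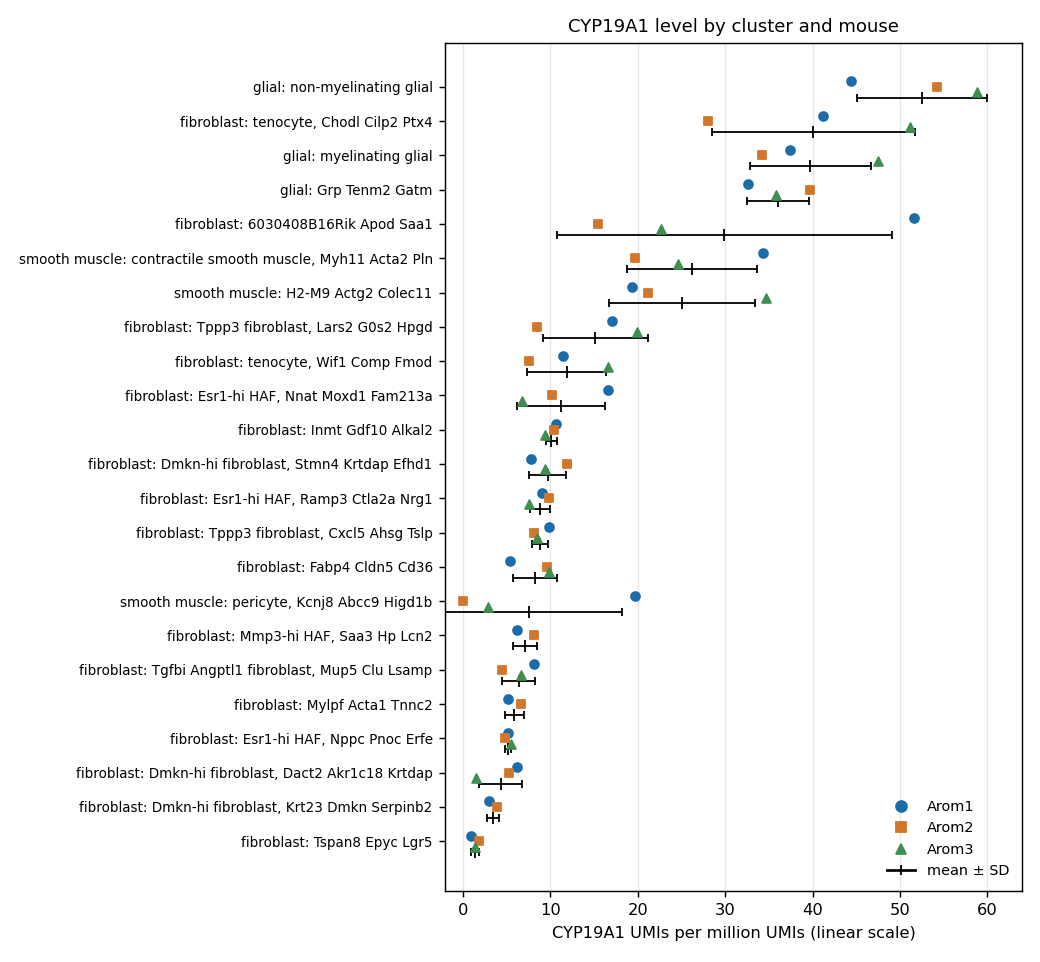
CYP19A1 level in CPM (horizontal axis, linear scale) in the clusters of fibroblast-like, glial-like and smooth muscle-like cells, ordered by their mean, with a point per Arom mouse with at least 10 barcodes and the mean ± SD below, for clusters with at least 2 such mice. The Chodl Cilp2 cluster of fibroblast-like cells averages 40.1 CPM among the glial-like clusters, and the Tspan8 Epyc Lgr5 cluster averages 1.37 CPM.

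The hernia-associated fibroblasts (HAFs) lay near the level of all Arom barcodes. Esr1-hi HAF-like cells, which carry the most estrogen receptor RNA, held 573 CYP19A1 UMIs in 4175 barcodes, a level of 7.495 ± 1.04 CPM (SD, n = 3). They gave 36.3 ± 14.5% of the CYP19A1 UMIs of fibroblast-like cells from 26.5 ± 5.55% of the barcodes. Their 3 clusters differed. The one with the most barcodes, led by Ramp3, Ctla2a, Nrg1, Uts2 and Arl4c, held 9.08, 9.87 and 7.57 CPM. The cluster led by Nnat, Moxd1, Fam213a, Scg5 and Pnoc held 16.6, 10.2 and 6.71 CPM, and 6 of its 17 UMIs in Arom1 lay in 1 barcode. The cluster led by Nppc, Pnoc and Erfe held 5.21, 4.82 and 5.46 CPM, below each mouse of both other clusters. Mmp3-hi HAF-like cells, led by Saa3, Hp and Lcn2, were present with at least 10 barcodes only in Arom1 and Arom2, where they held 6.14 and 8.09 CPM, and Arom3 had 3 such barcodes with 0 UMIs.

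CYP19A1 and Esr1 followed different patterns over the fibroblast-like clusters. The Chodl Cilp2 cluster had the highest CYP19A1 level and the lowest Esr1 level, 5.07 ± 3.50 CPM. The Nppc Pnoc Erfe cluster had the highest Esr1 level, 299 CPM, with CYP19A1 at 5.16 CPM. Over the 14 clusters with at least 10 barcodes in all 3 Arom mice, Pearson's r of the log2 (CPM + 1) levels was -0.53 for Esr1 and -0.56 for Por. These values are a description over clusters that share the same 3 libraries and differ in depth. Barcode by barcode, fibroblast-like cells with and without a CYP19A1 UMI held Esr1 about equally often in the mean over mice at equal depth. After Esr1 was thinned to 3000 UMIs per barcode, 16.8 ± 2.98% of the positive and 16.4 ± 0.899% of the negative barcodes held an Esr1 UMI. Before thinning these shares were 42.0 ± 9.87% and 34.6 ± 2.13%, with median depths of 15057 and 10879 UMIs. By mouse, the thinned shares were 16.7% and 15.8% in Arom1, 19.8% and 17.4% in Arom2, and 13.8% and 15.9% in Arom3, so the direction differed. The positive barcodes were the deeper ones, and the part of cluster makeup in these shares was not tested.

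**Figure D5:**
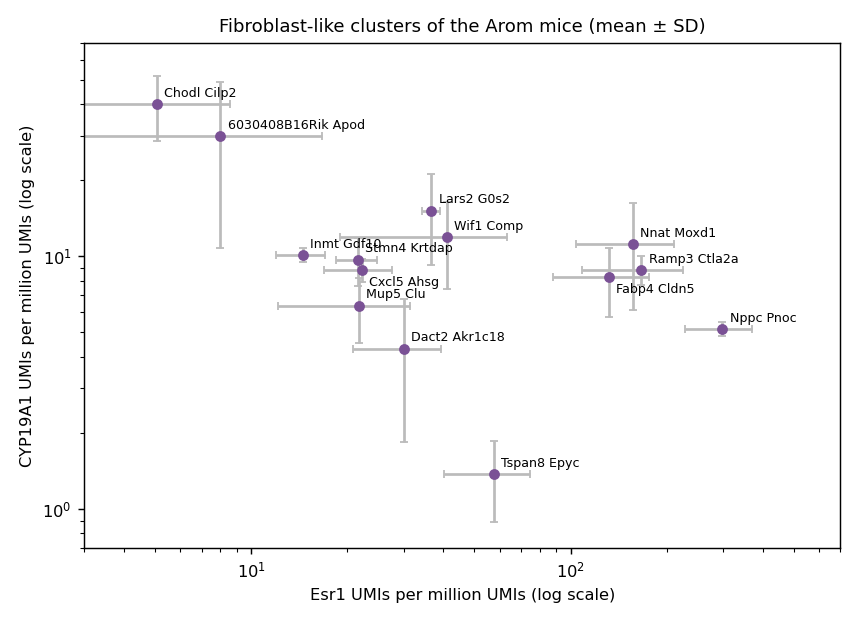
CYP19A1 (vertical axis) against Esr1 (horizontal axis), both in CPM on log scales, for the 14 fibroblast-like clusters with at least 10 barcodes in each Arom mouse, as the mean ± SD of 3 mice labelled with 2 leading genes, with error bars cut at the left edge. The Chodl Cilp2 cluster lies at the upper left with 40.1 CPM of CYP19A1 and 5.07 CPM of Esr1, and the Nppc Pnoc cluster at the far right with 299 CPM of Esr1.

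The genes whose levels ran most like CYP19A1 over the cell types were picked for that likeness, so where they peak follows from the choice. Over the 10 named types with all 3 Arom mice, among 11193 genes that reached 10 CPM in a type, the 10 highest Pearson correlations of log2 (CPM + 1) ranged from 0.92 to 0.96. They belonged to the adhesion molecule gene Igsf9b, Insc, Arhgef17, the semaphorin gene Sema5a, the microtubule-associated protein gene Map1a, Mib2, Armcx3, the creatine kinase gene Ckb, Cys1 and the synaptotagmin gene Syt11. Of these, 6 were highest in glial-like cells, 3 in smooth muscle-like cells and Cys1 in mesothelial-like cells. All points come from the same 3 libraries, and the highest of so many correlations over so few points are high by selection. Over 29 clusters the 10 highest values ranged from 0.79 to 0.85, and the genes were Fam26e, Katnal1, Cdk10, Magi2, Syt11, Ckb, Insc, Map1a, Igsf9b and Sema5a. Fam26e, the highest of them at r = 0.85, peaked in the fibroblast-like cluster of all barcodes that is led by Tnmd, Fmod, Wif1, Comp and Kera and held 24.5 ± 4.24 CPM of CYP19A1. The other clusters above the tissue level outside the finer groups were the mesothelial-like cluster led by Slpi, Slc39a8, Msln, Upk3b and Krt18 at 10.7 CPM, the fibroblast-like clusters led by Gsn, Myoc, Hmcn2, Has1 and Tnfaip6 at 10.9 CPM and by Pnoc, Ren1, Nppc, Aqp5 and Moxd1 at 7.95 CPM, and an unnamed cluster led by Gm26917, Meg3, Lars2, Mirg and mt-Co1 at 17.5 CPM from 10 UMIs.

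Which enzymes, receptors and promoter factors accompany the transgene was read from 8 lists of genes, and the levels below are those of the Arom mice. Por, the electron donor of aromatase, was at 78.6 CPM in glial-like, 101 CPM in smooth muscle-like, 51.2 CPM in mesothelial-like and 51.8 CPM in fibroblast-like cells, and at 39.9 CPM in endothelial-like cells. Star, which moves cholesterol into mitochondria, was at 21.8 CPM and Cyp11a1, which starts steroid synthesis there, at 2.89 CPM in fibroblast-like cells. The list of androgen synthesis held 7 genes, of which these 2 were analysed here. Among the Hsd17b enzymes, which interconvert weak and strong sex steroids, Hsd17b10 was the most abundant and was at 133 CPM in glial-like and 82.3 CPM in fibroblast-like cells. Esr1 was at 98.4 CPM in fibroblast-like, 26.4 CPM in mesothelial-like, 14.0 CPM in glial-like, 6.66 CPM in smooth muscle-like and 2.13 CPM in endothelial-like cells. Barcodes of the other types also held RNA of fibroblast markers, and the part of fibroblast RNA in their Esr1 values was not tested. The types with the highest CYP19A1 level were not those with the most Esr1. Among the receptors and factors that act on the human aromatase promoters, the orphan nuclear receptor gene Nr2f2 was at 127 CPM in both glial-like and smooth muscle-like cells, 34.7 CPM in mesothelial-like, 17.8 CPM in fibroblast-like and 56.6 CPM in endothelial-like cells.

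In fibroblast-like cells, the genotypes differed in 10 of 43 list genes tested (23.3%), against 12.6% of all 13985 genes tested with edgeR's quasi-likelihood test and Benjamini-Hochberg adjustment, with CYP19A1 left out. Over the list genes the median log2 difference was -7.67e-05, and over all genes it was 0.01. Of the 10, 7 were higher and 3 lower in Arom, where 7.32% of all genes were called higher and 5.29% lower. Of the 5 estrogen-responsive genes 3 rose, and Pgr and Nppc had the largest log2 differences of the 10. This list was drawn from genes already reported in these samples, and a rise of Esr1 had been reported there as well. Neither the direction of these genes nor the share of 23.3%, which counts them, is independent evidence. Pgr, the progesterone receptor gene, was at 3.42, 0.766 and 1.42 CPM in WT1 to WT3 and at 64.1, 98.3 and 36.1 CPM in Arom1 to Arom3 (log2 difference 5.05 ± 0.62 SE, adjusted p = 0.0174 by edgeR). Nppc, which encodes the natriuretic peptide CNP, rose from 71.1 ± 14.3 to 870 ± 342 CPM (3.61 ± 0.38, adjusted p = 0.0136 by edgeR). Greb1, a direct target of the estrogen receptor, rose from 18.5 ± 2.56 to 77.3 ± 23.2 CPM (2.05 ± 0.24, adjusted p = 0.0169 by edgeR). Cilp and Rbp4 of the same list had adjusted p = 0.0738 and 0.311 by edgeR. DESeq2 called 14 of the 43 list genes, where it called 20.3% of the 13983 genes with an adjusted p. Its calls were the 10 of edgeR together with Cilp, Cyp11a1, Lifr and Stat3.

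The other fibroblast-like changes touched steroid supply, clearance and receptors. Esr1 was at 60.0, 54.4 and 47.6 CPM in WT and at 85.8, 98.1 and 111 CPM in Arom samples (0.84 ± 0.13, adjusted p = 0.0212 by edgeR). Star rose from 5.34 ± 1.36 to 21.8 ± 5.69 CPM (log2 difference 1.99, adjusted p = 0.0193). Akr1c14, which reduces dihydrotestosterone, rose from 1.63 ± 0.986 to 16.9 ± 11.0 CPM (adjusted p = 0.0362), with Arom3 at 4.53 CPM the lowest of the 3. It belongs to a cluster of closely related genes, among which reads can be hard to assign. Cyb5r3, a cytochrome b5 reductase, rose by 0.41 ± 0.10 on the log2 scale (adjusted p = 0.0433). Sult1a1, a sulfotransferase that acts on phenols and estrogens, fell from 18.2 ± 2.37 to 5.01 ± 2.53 CPM (adjusted p = 0.0220). Crtc2, a coactivator of CREB, and Nr2f2 fell by 0.79 ± 0.18 and 0.39 ± 0.09 on the log2 scale (adjusted p = 0.0384 and 0.0414, all by edgeR). Por differed by 0.08 ± 0.13 (adjusted p = 0.686). These calls rest on the full set of libraries. The number of genes called was 1764 of all genes and fell to between 4 and 117 when Arom1, Arom2, WT1, WT2 or WT3 was left out (5 without WT2), and rose to 4107 without Arom3. The limits the study set on genes, UMIs and mitochondrial share cap a barcode at 2500 genes. They kept 4674 of the 15259 Arom fibroblast-like barcodes. Esr1-hi HAF-like barcodes were deep, at a mean median of 17151 UMIs against 11115 over all Arom fibroblast-like barcodes. Within these limits the number of genes called was 1, and none of the 10 list calls was kept by edgeR. The log2 difference then was 0.0045 for Star (adjusted p = 0.998) and 0.24 for Esr1 (adjusted p = 0.475), against 1.99 and 0.84 over all barcodes. For Nppc it was 2.41 in place of 3.61, for Crtc2 -0.51 in place of -0.79, for Cyb5r3 0.24 in place of 0.41 and for Sult1a1 -0.97, while Pgr, Greb1, Akr1c14 and Nr2f2 stood at 4.56, 1.47, 2.87 and -0.41, all with adjusted p from 0.119 to 0.389 by edgeR.

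The fibroblast-like barcodes of the genotypes lay in different clusters. Esr1-hi HAF-like cells were 755 of 7653 fibroblast-like barcodes in WT and 4175 of 15259 in Arom mice, and the WT ones were mostly the Nnat Moxd1 cluster with 739 barcodes, against 393 in Arom mice. The Ramp3 and the Nppc Pnoc Erfe clusters had 6 and 10 barcodes in WT and 2163 and 1619 in Arom mice. Mmp3-hi HAF-like cells had 22 and 1766 barcodes, and the Dmkn-hi cluster led by Krt23 had 1 and 1566. The Mmp3-hi cells also ranged from 0.0856% to 16.2% of the fibroblast-like barcodes of an Arom mouse. Nppc, which differed between the genotypes, leads 1 of these clusters, so the sizes are given only to show where the barcodes lay. Each difference above is one over the whole fibroblast-like class, and the part of its makeup in the values of Nppc, Pgr, Esr1 and the other genes was not tested.

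In endothelial-like cells, which held little CYP19A1, 12 of 38 list genes passed the same test (31.6%), against 14.2% of the 12105 genes tested, with 8 higher and 4 lower in Arom, where 8.22% of all genes were called higher and 5.94% lower. Their median log2 difference was 0.11, and that of all genes was -0.01. The share of 31.6% counts Nppc and Cilp, from the list drawn from genes already reported in these samples, so it is not independent evidence. The cluster makeup of the endothelial-like class differed between the genotypes. The venular cluster held 1079 of 10234 endothelial-like barcodes in WT and 2045 of 6237 in Arom mice. The capillary cluster led by Timp4 held 3799 and 1011. Each difference below is one over the whole class, and the part of its makeup in the values was not tested. Replicate numbers deviated together in this type, and with the replicate number as a block 2857 genes were called in place of 1714. Cyp1b1 and Cyp1a1, which oxidize estrogens, rose from 12.2 ± 5.10 to 39.5 ± 11.5 CPM and from 70.7 ± 15.8 to 130.3 ± 29.5 CPM (adjusted p = 0.00875 and 0.0166 by edgeR), while Sult1a1 fell from 152 ± 42.6 to 74.96 ± 7.59 CPM (adjusted p = 0.0106). Among the regulators of aromatase promoters, the shared cytokine receptor Il6st rose from 321 ± 79.2 to 651 ± 80.6 CPM (adjusted p = 0.00913), Osmr and Lifr rose by 0.43 ± 0.12 and 0.53 ± 0.14 on the log2 scale (adjusted p = 0.0425 and 0.0334), and Nr2f2 rose from 30.1 ± 4.43 to 56.6 ± 7.72 CPM (adjusted p = 0.00607). Esrra fell by 0.63 ± 0.17 on the log2 scale (adjusted p = 0.0366), Pgrmc1, a heme-binding partner of P450 enzymes, by 0.56 ± 0.13 (adjusted p = 0.0246), and Akr1c14 by 0.96 ± 0.20 (adjusted p = 0.0147). Nppc rose from 1.92 ± 0.604 to 6.99 ± 2.18 CPM and Cilp from 4.41 ± 1.55 to 15.7 ± 5.65 CPM (adjusted p = 0.00707 and 0.00742, all by edgeR). Both are at 870 and 1570 CPM in the fibroblast-like cells of the Arom mice, and the part of free RNA in these 2 results was not tested. Without Arom1, Arom2 or WT2 the number of genes called was 428, 773 and 633, and within the study's limits it was 794. The calls of Esrra and Osmr were lost when any single library was left out, with adjusted p from 0.0565 to 0.102 and from 0.0607 to 0.118 by edgeR. Lifr was lost without Arom1, Arom2, WT2 or WT3 and Pgrmc1 without Arom1, Arom2, WT1 or WT3, Cyp1a1 without Arom2 or WT2, and Akr1c14 and Sult1a1 without Arom1. DESeq2 called 11 of the 38 list genes, all of edgeR's calls but Esrra (adjusted p = 0.0773), and 14.1% of the 12104 genes with an adjusted p. Within the study's limits the calls of Cyp1a1, Lifr, Esrra and Akr1c14 were lost, with log2 differences of 0.69, 0.57, -0.88 and -0.57 (adjusted p = 0.106, 0.110, 0.0611 and 0.0548 by edgeR), and the difference of Nppc was 3.31 in place of 1.85.

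In glial-like, mesothelial-like and smooth muscle-like cells, the types with the highest CYP19A1 levels, 0 of 33, 37 and 33 list genes passed edgeR's test. The background was low too, with 0.378%, 0.213% and 0.0531% of 9536, 11714 and 9408 genes called, although 986, 2387 and 1843 genes had an unadjusted p under 0.05. Genes called higher in Arom were 0.231%, 0.179% and 0.0319% and genes called lower 0.147%, 0.0341% and 0.0213% of those tested. Among the list genes 6, 10 and 13 had an unadjusted p under 0.05 by edgeR. The median log2 difference of all list genes was 0.09, 0.0024 and 0.06. That of the 3, 4 and 3 estrogen-responsive ones was 1.23, 1.74 and 0.95, but this list was drawn from genes already reported in these samples. Nppc and Cilp were abundant in the fibroblast-like cells of the Arom mice. The 8 fibroblast markers were at 12340, 20211 and 6160 CPM in the glial-like, mesothelial-like and smooth muscle-like cells of those mice. The part of fibroblast RNA in these medians and in the DESeq2 calls below was not tested. UMIs per sample were 1031314 to 3987858, 933774 to 13408093 and 1657549 to 2300590, against 16249446 to 71325478 in fibroblast-like cells. Mesothelial-like barcodes numbered 386 in WT and 2334 in Arom mice. A gene without a call here is not shown to be unchanged. DESeq2 called 2, 4 and 3 list genes, where it called 98, 628 and 203 of all genes, or 1.03%, 5.36% and 2.68% of the 9532, 11709 and 7581 with an adjusted p. Its calls were Cilp and Cyp1b1 in glial-like cells, Akr1c14, Greb1, Nppc and Sult1a1 in mesothelial-like cells, and Cyp1b1, Il6st and Por in smooth muscle-like cells. In smooth muscle-like cells Por was at 39.4 ± 1.53 CPM in WT and 101 ± 31.8 CPM in Arom samples (log2 difference 1.28 ± 0.22 SE, adjusted p = 0.0509 by edgeR), and Cyp1b1 at 3.13 ± 2.37 and 58.5 ± 50.8 CPM (adjusted p = 0.0572). The pericyte cluster held 806 of 1930 smooth muscle-like barcodes in WT and 437 of 1463 in Arom mice, and the H2-M9 cluster 422 and 585. The part of this makeup in the values was not tested. Replicate numbers deviated together in this type as well, and with the replicate number as a block 576 of all genes were called in place of 5. Without Arom3, 122, 1384 and 849 genes were called in glial-like, mesothelial-like and smooth muscle-like cells. Without any other single library the counts were at most 29, 0 and 1, with 13, 7, 10 and 18 in glial-like cells when Arom1, Arom2, WT2 or WT3 was left out. In glial-like cells the estrogen receptor gene Esr1 was at 7.95 ± 0.467 CPM in WT and 14.0 ± 8.42 CPM in Arom samples (adjusted p = 0.580).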

How the data were processed

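Single-cell RNA sequencing had been done on LAM cells of 3 WT and 3 Aromhum mice. The authors aligned the reads to the mouse genome (mm10) with human CYP19A1 added, using Cell Ranger 3.0.2, and deposited 1 table of raw UMI counts, with 16494 gene rows and 63647 barcode columns. Columns of no sample numbered 0. CYP19A1, the gene lists and the markers were chosen with earlier results of these data known.

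All deposited barcodes were kept. Counts were scaled to 10000 per barcode and logged. The 2000 most variable genes, without CYP19A1, gave 30 principal components, and a graph of 20 neighbours was clustered by Leiden at resolution 0.8 (Scanpy 1.11.5). Clusters were named from markers, so names may differ from those of the study. Scrublet's automatic threshold marked 0% of WT2 and WT3, so the top 6% of scores in each sample were marked instead. Levels needed 10 barcodes per mouse. Intervals were exact Poisson or Clopper-Pearson at 95% and cover counting error only.

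Counts summed per mouse and type (at least 20 barcodes) were compared with edgeR 4.0.16 (TMM, filterByExpr, quasi-likelihood test, Benjamini-Hochberg threshold 0.05). DESeq2 1.42.0 and the settings in the closing section were alternatives. The genes named were CYP19A1, list genes that passed the test or else the most abundant of a list, the 10 genes most like CYP19A1, and leading genes of clusters above its overall level. Other genes and clusters were named after their values were seen. Some genes that the rule names are not reported here. Same-numbered WT and Arom samples had positively correlated deviations in every pair in endothelial-like (r from 0.16 to 0.34), smooth muscle-like (0.11 to 0.27) and glial-like cells (0.035 to 0.15). The lowest pair was at -0.13 in fibroblast-like and mesothelial-like cells.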

Additional observations from a re-analysis of the deposited data

Results flagged for a closer look

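Akr1c14 moved in opposite directions in 2 cell types: its log2 difference of Arom over WT was 3.29 in fibroblast-like and -0.96 in endothelial-like cells, and all samples of the groups lay apart in both. Nr2f2 did so too, with -0.39 in fibroblast-like and 0.92 in endothelial-like cells. The difference between the cell types was not tested for either gene. Both types differed in cluster makeup between the genotypes, and the part of makeup in these values was not tested either.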

How the results depend on the processing

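Glial-like cells had the highest CYP19A1 level of the named types under every alternative run. Their level was 61.5 CPM within the study's limits, 52.6 CPM without marked doublets and 38.01 CPM with each barcode typed on its own, and it ranged from 42.9 to 46.9 CPM when each Arom replicate was left out. Their share of positive barcodes was 12.2% at 3000 and 5.10% at 1000 UMIs, and 13.8% to 16.3% without a replicate. The fibroblast-like part of the CYP19A1 UMIs was 64.7% to 68.1% without a replicate. Grouping by the column order and leaving out the barcodes with 5 or more CYP19A1 UMIs were chosen after seeing the data, and the latter gave 8.12 CPM in fibroblast-like cells.

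Counts of genes called depended on the setting. With DESeq2 they were 2833 in fibroblast-like, 628 in mesothelial-like, 98 in glial-like and 203 in smooth muscle-like cells. Without a filter on low counts they were 129, 107 and 292 in mesothelial-like, glial-like and smooth muscle-like cells. With the replicate number as a block they were 1274 in fibroblast-like, 429 in mesothelial-like, 165 in glial-like, 2857 in endothelial-like and 576 in smooth muscle-like cells. Within the study's limits they were 1, 0, 2, 794 and 0, where 1 mesothelial-like and 2 glial-like and smooth muscle-like WT samples were left. Without marked doublets they were 161 in mesothelial-like, 14 in glial-like and 41 in smooth muscle-like cells. Leaving out each sample in turn gave 4 to 4107, 0 to 1384, 7 to 122, 428 to 1669 and 0 to 849, in the same order. The cause was not tested. Of 264 comparisons of the 22 named calls with 12 alternatives, 176 kept the call, 88 lost it and 0 changed direction. The block ended the calls of Cyb5r3 (adjusted p = 0.0695) and Nr2f2 (adjusted p = 0.0720) in fibroblast-like cells by edgeR and no other named call. Of the 22 calls, 8 were kept within the study's limits.

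Below fibroblast-like cells the named types held few CYP19A1 UMIs, and the ranges over the mice did not separate neighbours in their order. The part of low counts in this was not tested.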
